A study of Arabidopsis thaliana with 24 samples.

Results

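CRT1b (AT1G09210), AT5G07340 and ATERDJ3B (AT3G62600) code for a calreticulin, a calnexin and a DnaJ-type co-chaperone of the endoplasmic reticulum (ER). Their probe sets were taken by locus from the annotation of the Affymetrix ATH1 array, 1 probe set for each gene, 3 of the 22746 probe sets tested. The 3 genes, and the lists of ER genes used below, were chosen with earlier results of these data known. The adjusted p, ranks and shares given for them do not allow for that choice. Calreticulin and calnexin are lectins: they hold new glycoproteins through a terminal glucose on the N-glycan until the protein is folded. ERdj3B works beside them, delivering clients to the HSP70 chaperone BiP together with SDF2. In Arabidopsis this glycoprotein quality control is best known in immunity for the folding of EFR, the receptor kinase that perceives elf18, a peptide taken from the elongation factor Tu of bacteria. TBF1, a transcription factor related to the heat shock factors, binds the TL1 element found upstream of ER-resident genes induced by salicylic acid (SA), a defence hormone.

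The study asked how the responses to SA and to elf18 differ when TBF1 is mutated, on 24 single-colour arrays of mature leaves, 3 arrays in each of 8 groups. The SA-treated groups were tbf1 and wild type (Columbia-0, WT) plants sprayed with 1 mM SA, and their water groups were tbf1 and WT plants sprayed with water, all taken after 6 h. The elf18 groups were tbf1 and WT leaves infiltrated with 10 µM elf18, and their water groups were tbf1 and WT leaves infiltrated with water, all taken after 2 h. All plants were 3 weeks old, grown on soil at 22 °C with a day of 16 h and a night of 8 h. The labels name no tbf1 allele, so how far it works as a null is not known here, and no probe set was named for TBF1, so its transcript is not analysed here. The labels call the replicates biological without saying how plants were pooled, so the p-values cover only the variation among the arrays at hand, and 3 arrays a group limit the precision.

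Each deposited value is a log2 level relative to the median of its probe set over the 24 arrays. A level can therefore be compared between groups for the same gene, but not between genes, and neither presence nor leaf markers can be checked as present or absent. Across probe sets, 2 arrays correlated at 0.84 to 0.96 within a group and at 0.68 or less between groups. The widest group was tbf1 water spray, with a mean SD over probe sets of 0.242 against 0.114 to 0.205 in the other groups. Its replicate 1 had the lowest weight, 0.266, in the alternative fit with array weights, while the main fit counted all arrays in full. An index of RNA quality, the 5′ minus the 3′ control probe sets averaged over 6 pairs, was -1.53 ± 0.05 (SD, n = 3, log2) in tbf1 SA spray, -1.67 ± 0.29 in tbf1 water spray, 0.48 ± 0.20 in WT SA spray and 0.78 ± 0.08 in WT water spray. It was -0.34 ± 0.06 in tbf1 elf18, 0.84 ± 0.07 in tbf1 water infiltration, -0.98 ± 0.16 in WT elf18 and 0.307 ± 0.004 in WT water infiltration.

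In WT leaves SA raised all 3 genes, and in tbf1 leaves it raised AT5G07340 and ATERDJ3B by less, while the change in CRT1b did not pass the test. CRT1b stood at -0.17, -0.07 and -0.35 on the 3 tbf1 SA arrays and at 0.12, -0.82 and -1.10 on the tbf1 water arrays. In WT it stood at 2.86, 2.72 and 2.74 after SA and at 1.02, 1.09 and 0.88 after water. The WT groups were far apart, the tbf1 groups overlapped, and every tbf1 SA array lay below every WT water array.

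AT5G07340 stood at 0.44, 0.30 and 0.72 after SA and at -0.08, -0.46 and -0.35 after water in tbf1. In WT its values were 2.61, 2.49 and 2.47 after SA and 0.65, 0.70 and 0.55 after water. Here SA and water did not overlap in either genotype, and the tbf1 SA array at 0.72 lay just above the WT water arrays, while the other two lay below them all. ATERDJ3B stood at -0.51, -0.38 and -0.82 after SA and at -0.57, -1.89 and -1.94 after water in tbf1. Its WT values were 2.58, 2.64 and 2.54 after SA and 0.25, 0.22 and -0.04 after water. Replicate 1 of tbf1 water spray lay within the tbf1 SA range for this gene, and all tbf1 SA arrays lay below all WT water arrays.

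**Figure D1:**
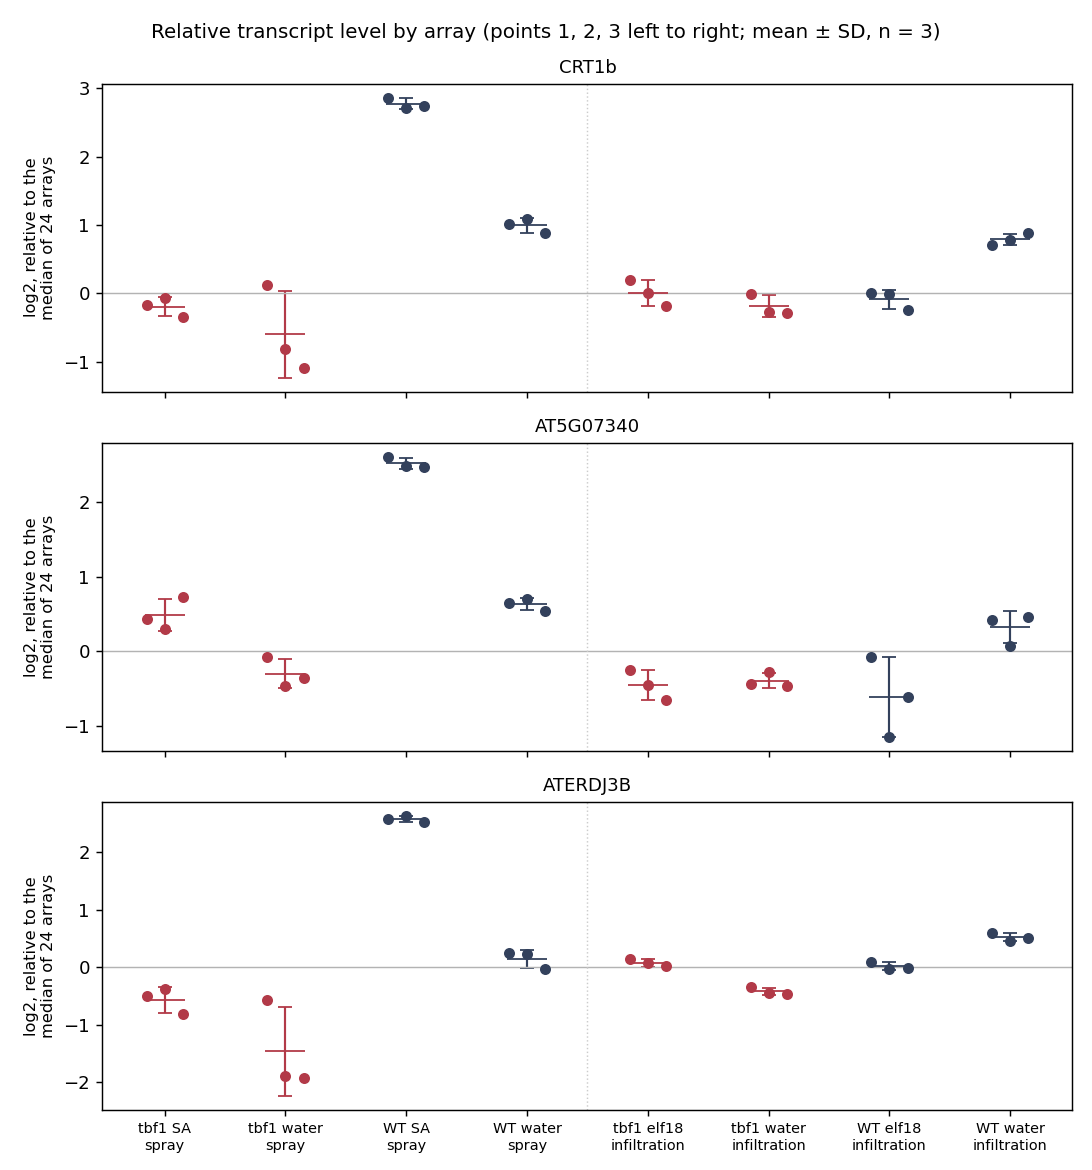
Level of CRT1b, AT5G07340 and ATERDJ3B on each of the 24 arrays (log2, relative to the median of the 24 arrays). Points are arrays, horizontal lines the group mean and bars the SD (n = 3), tbf1 in red and WT in blue. WT SA spray is the highest group for each gene, at 2.77, 2.52 and 2.58.

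In WT the SA response was 1.78 ± 0.19 for CRT1b (log2, SE, 3.43-fold, adjusted p = 3.06e-08, limma), 1.89 ± 0.18 for AT5G07340 (3.70-fold, adjusted p = 5.31e-09) and 2.44 ± 0.21 for ATERDJ3B (5.42-fold, adjusted p = 1.03e-09). The call required an adjusted p below 0.05. All 3 genes were called higher, where 32% of all probe sets were called and 15.1% were called higher. SA and water arrays did not overlap for any of the 3 in WT, as for 22% of probe sets in this direction. These responses exceeded those of 98.4%, 98.7% and 99.5% of probe sets. In tbf1 the SA response was 0.40 ± 0.19 for CRT1b (95% interval 0.01 to 0.79, adjusted p = 0.0946), 0.78 ± 0.18 for AT5G07340 (1.72-fold, adjusted p = 0.00121) and 0.89 ± 0.21 for ATERDJ3B (1.86-fold, adjusted p = 0.00158). Thus 2 of 3 were called higher, against 38.9% of probe sets called and 19.6% called higher. AT5G07340 was the 1 gene of the 3 without overlap, a pattern of 19.2% of probe sets in this direction. Without replicate 1 of tbf1 water spray the tbf1 responses were 0.76, 0.89 and 1.34, and CRT1b was called (adjusted p = 5.56e-05). Without replicate 3 of that group CRT1b was at 0.15, and after quantile normalization ATERDJ3B was at 0.45. With only the 6 arrays of the groups compared in the fit, ATERDJ3B was not called in tbf1 (adjusted p = 0.0770).

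The difference between genotypes in the SA response, tbf1 minus WT, was -1.37 ± 0.27 for CRT1b (log2, SE, adjusted p = 0.000265, limma), -1.10 ± 0.26 for AT5G07340 (adjusted p = 0.00163) and -1.54 ± 0.30 for ATERDJ3B (adjusted p = 0.000275). All 3 were called lower, against 29.3% of probe sets called and 12.7% called lower. Only 0.932%, 1.99% and 0.576% of probe sets had a lower difference. Leaving out each of the 12 arrays in turn gave -1.62 to -1.02 for CRT1b, -1.22 to -0.997 for AT5G07340 and -1.78 to -1.10 for ATERDJ3B, each called every time. The end nearest 0 was reached without replicate 1 of tbf1 water spray. The quality index changed by 0.135 with SA in tbf1 and by -0.30 in WT, and with it as a covariate the differences were -1.89, -1.42 and -2.21, all called. With 1 mean per group, the slope of this covariate comes only from the spread of the index within groups. That spread was widest in tbf1 water spray (SD 0.29, from -1.83 to -1.34) and at most 0.195 (SD) in the others. Where groups differ by more than this spread, here and below, the covariate values are extrapolated.

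**Figure D2:**
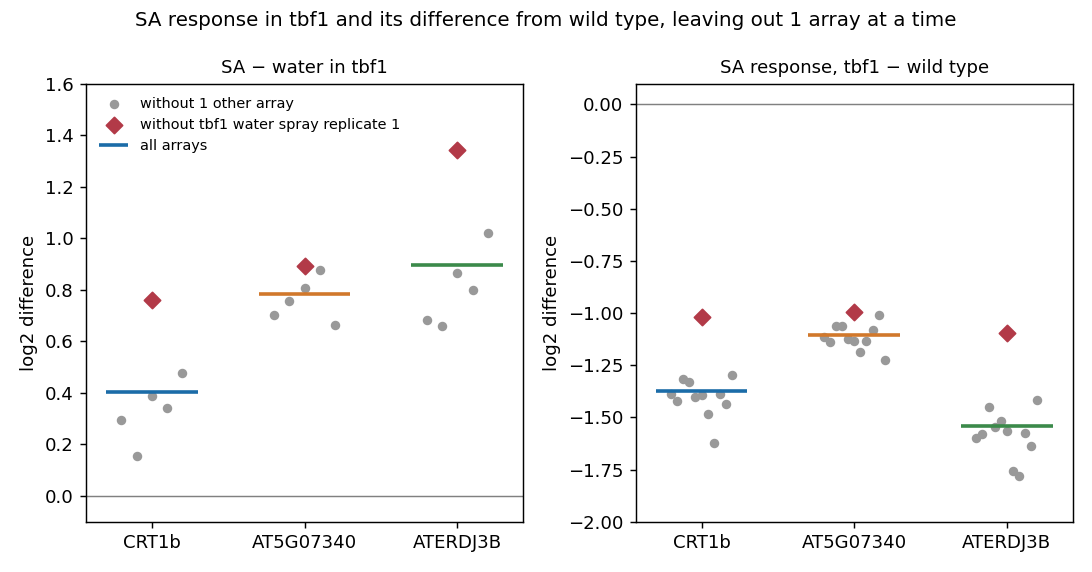
SA response in tbf1 (left) and its difference from WT (right), log2, for each gene with all arrays (line), without replicate 1 of tbf1 water spray (diamond) and without 1 other array (grey points). The diamond is the largest tbf1 response for each gene, 0.76, 0.89 and 1.34, and all values of the difference between genotypes lie below 0.

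Leaf cell markers were read beside these values. Of 5 measured mesophyll and photosynthesis genes 3 were called lower with SA in tbf1 and 3 in WT, with medians of -0.37 and -0.29. The guard cell gene FMA, a stomatal transcription factor, fell by 0.82 with SA in tbf1 and was at -0.19 in WT, where it was not called. SWEET11, a sucrose exporter of phloem parenchyma, rose by 0.71 in tbf1 and 0.46 in WT. The difference between genotypes was called lower for FMA (-0.62), as for the 3 ER genes, and for 1 of the 5 mesophyll genes (median 0.12), and SWEET11 was at 0.25, not called. In whole leaves fewer cells of a type and less RNA per cell cannot be told apart, and the part of either in the ER genes was not tested.

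After elf18 all 3 genes were called lower in WT, and none was called in tbf1. The WT call of ATERDJ3B was lost without any 1 of its 6 arrays. With the quality index as a covariate CRT1b and ATERDJ3B were above 0 in WT and were called higher in tbf1, as given below. CRT1b stood at 0.19, -0.00088 and -0.18 on the tbf1 elf18 arrays and at -0.0051, -0.27 and -0.28 on the tbf1 water arrays. In WT it stood at 0.00088, -0.017 and -0.25 after elf18 and at 0.71, 0.78 and 0.88 after water. WT water was the group apart, and the other 3 groups overlapped one another.

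AT5G07340 stood at -0.25, -0.45 and -0.66 after elf18 and at -0.44, -0.28 and -0.47 after water in tbf1. Its WT values were -0.08, -1.14 and -0.62 after elf18 and 0.43, 0.08 and 0.47 after water. The WT elf18 arrays were spread over more than 1 log2 unit yet stayed below the WT water arrays. ATERDJ3B stood at 0.14, 0.07 and 0.02 after elf18 and at -0.35, -0.44 and -0.47 after water in tbf1. In WT it had 0.09, -0.04 and -0.02 after elf18 and 0.59, 0.46 and 0.51 after water. For this gene elf18 and water did not overlap in either genotype, higher after elf18 in tbf1 and lower in WT.

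In WT the elf18 response was -0.88 ± 0.19 for CRT1b (log2, SE, adjusted p = 0.000352, limma), -0.94 ± 0.18 for AT5G07340 (adjusted p = 0.000105) and -0.51 ± 0.21 for ATERDJ3B (adjusted p = 0.0442). All 3 were called lower, where 58.1% of probe sets were called and 26.9% were called lower. The arrays did not overlap for any of the 3, as for 28.1% of probe sets in this direction. The median over all probe sets in this comparison was 0.13. Without any 1 of its 6 arrays ATERDJ3B was no longer called, with adjusted p of 0.0575 to 0.106. In tbf1 the responses were 0.19 ± 0.19 for CRT1b (95% interval -0.20 to 0.58), -0.06 ± 0.18 for AT5G07340 (-0.43 to 0.32) and 0.50 ± 0.21 for ATERDJ3B (0.06 to 0.94). In limma their adjusted p were 0.434, 0.821 and 0.0633, so none was called, against 41.7% of probe sets. At an unadjusted p below 0.05 in limma ATERDJ3B alone passed (unadjusted p = 0.0276). It was also the 1 gene whose elf18 arrays all lay above the water arrays, as did 30.7% of probe sets. ATERDJ3B was called higher after quantile normalization (0.71), with array weights (0.50) and with only the groups compared (0.50).

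The difference between genotypes in the elf18 response was 1.07 ± 0.27 for CRT1b (log2, SE, adjusted p = 0.00682, limma), 0.88 ± 0.26 for AT5G07340 (adjusted p = 0.0190) and 1.01 ± 0.30 for ATERDJ3B (adjusted p = 0.0230). All 3 were called higher, against 15.5% of probe sets called and 9.82% called higher. The call for AT5G07340 was lost without any 1 of 3 arrays, replicate 3 of WT water infiltration, replicate 2 of WT elf18 and replicate 1 of tbf1 elf18 (adjusted p up to 0.0600). That for ATERDJ3B was lost without replicate 1 of WT water infiltration, replicate 3 of tbf1 water infiltration or replicate 1 of tbf1 elf18 (adjusted p up to 0.0516).

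The quality index fell by 1.19 with elf18 in tbf1 and by 1.29 in WT. With it as a covariate the elf18 responses were 1.62, 0.80 and 2.32 for CRT1b, AT5G07340 and ATERDJ3B in tbf1, where the first and the last were called. In WT they were then 0.67, -0.0052 and 1.48, and ATERDJ3B was called higher (adjusted p = 0.0300). The direction within a genotype thus turned with the covariate for CRT1b and ATERDJ3B in WT and for AT5G07340 in tbf1. These shifts of the index were wider than its spread within any group. The difference between genotypes stayed called at 0.94, 0.80 and 0.84. All 5 mesophyll genes were called lower with elf18 in both genotypes, with medians of -0.95 in tbf1 and -1.60 in WT. Their difference between genotypes was called higher for all 5, as for the 3 ER genes, at 0.51 to 0.80 with a median of 0.58, and their part was not tested. SWEET11 was called lower with elf18 in both genotypes (-1.03 in tbf1, -1.35 in WT), and FMA in tbf1 only (-0.48). The difference between genotypes was not called for SWEET11 (0.32) or FMA (-0.32).

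**Figure D3:**
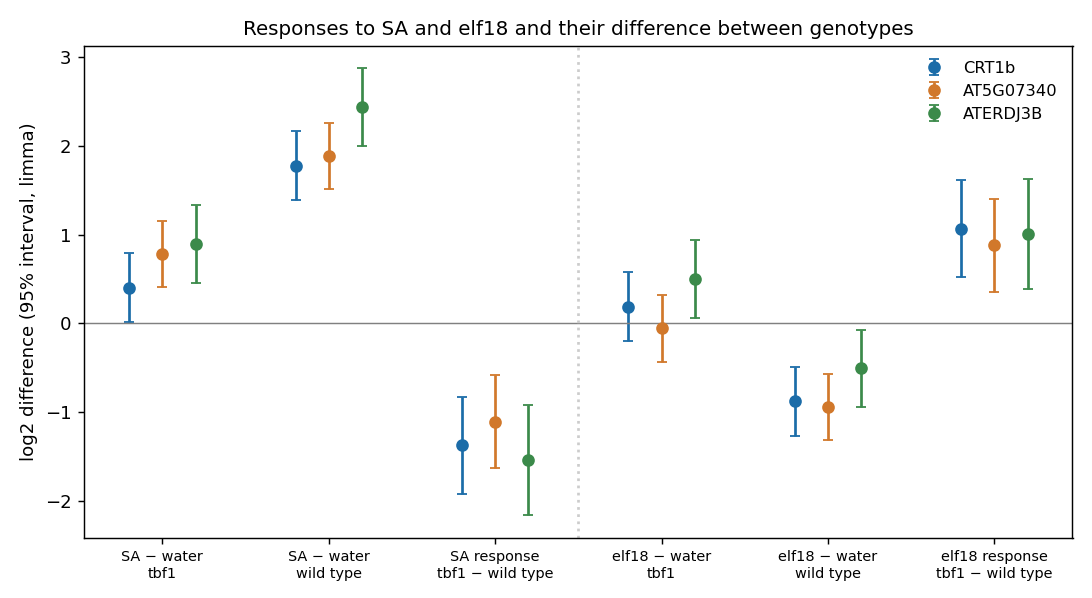
Log2 responses of the 3 genes to SA (left) and elf18 (right) in tbf1 and WT, and the difference between the genotypes, with 95% intervals (limma). The differences are all below 0 for SA, from -1.54 to -1.10, and all above 0 for elf18, from 0.88 to 1.07.

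Set directly against WT, tbf1 had lower levels of all 3 genes after SA spray and after both water treatments, and no called difference after elf18. With the quality index as a covariate none of the differences after either spray was called, as given below. These comparisons use the same arrays as the responses above and are no separate evidence. After SA spray the tbf1 minus WT difference was -2.97 ± 0.19 for CRT1b (log2, SE, 7.84-fold lower, adjusted p = 1.60e-12, limma), -2.04 ± 0.18 for AT5G07340 (4.11-fold lower, adjusted p = 6.10e-10) and -3.15 ± 0.21 for ATERDJ3B (8.90-fold lower, adjusted p = 4.60e-12). Here 58.1% of probe sets were called and 27% were called lower, and 0.132%, 1.52% and 0.0659% had a lower difference. The tbf1 arrays lay below the WT arrays without overlap for all 3, as for 28.9% of probe sets.

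After water spray the difference was -1.60 ± 0.19 for CRT1b (adjusted p = 1.01e-07, limma), -0.93 ± 0.18 for AT5G07340 (adjusted p = 9.39e-05) and -1.61 ± 0.21 for ATERDJ3B (adjusted p = 5.59e-07). All 3 were called lower, against 68.8% of probe sets called and 28.8% called lower, and the groups did not overlap, as for 27.9% of probe sets in this direction. Without replicate 1 of tbf1 water spray the differences were -1.95, -1.04 and -2.06, and after quantile normalization ATERDJ3B was at -1.06. The median over all probe sets was 0.14 after SA spray and 0.18 after water spray. Between these tbf1 and WT groups the index differed by -2.01 after SA spray and -2.44 after water spray. With the index as a covariate the differences were -0.55, -0.58 and -0.06 after SA spray and 1.34, 0.83 and 2.14 after water spray, none of them called. All 5 mesophyll genes were called lower as well, with medians of -1.24 after SA spray and -1.02 after water spray, and their part was not tested. SWEET11 was also called lower, at -1.70 after SA spray and -1.96 after water spray. FMA was called lower after SA spray (-0.57) and was at 0.05 after water spray, not called.

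After water infiltration the tbf1 minus WT difference was -0.98 ± 0.19 for CRT1b (log2, SE, adjusted p = 0.000409, limma), -0.72 ± 0.18 for AT5G07340 (adjusted p = 0.00483) and -0.94 ± 0.21 for ATERDJ3B (adjusted p = 0.00190). All 3 were called lower, against 20.6% of probe sets called and 8.55% called lower. The groups did not overlap for any of them, as for 18.4% of probe sets in this direction. The index was higher in tbf1 here, by 0.54, and with it as a covariate the differences were -1.62, -1.11 and -1.77, all called. Of the 5 mesophyll genes 1 was called higher and 4 were not called, with a median of 0.06. FMA (0.49) and SWEET11 (0.69) were both called higher in tbf1, opposite in sign to the 3 ER genes. The part of these markers was not tested. After elf18 the difference was 0.09 ± 0.19 for CRT1b (95% interval -0.30 to 0.48), 0.16 ± 0.18 for AT5G07340 (-0.21 to 0.53) and 0.06 ± 0.21 for ATERDJ3B (-0.38 to 0.50). None of the 3 was called in limma (adjusted p = 0.732, 0.513 and 0.843, unadjusted p = 0.626, 0.381 and 0.770), against 36.9% of probe sets. With the covariate these became -0.68, -0.30 and -0.92, and ATERDJ3B was called lower (adjusted p = 0.0177), while the index was higher in tbf1 by 0.64. All 5 mesophyll genes were called higher in tbf1 here (median 0.65), as was SWEET11 (1.01), while FMA was at 0.17, not called. Without replicate 1 of WT elf18 AT5G07340 was called higher in tbf1, at 0.43 (adjusted p = 0.0442).

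**Figure D4:**
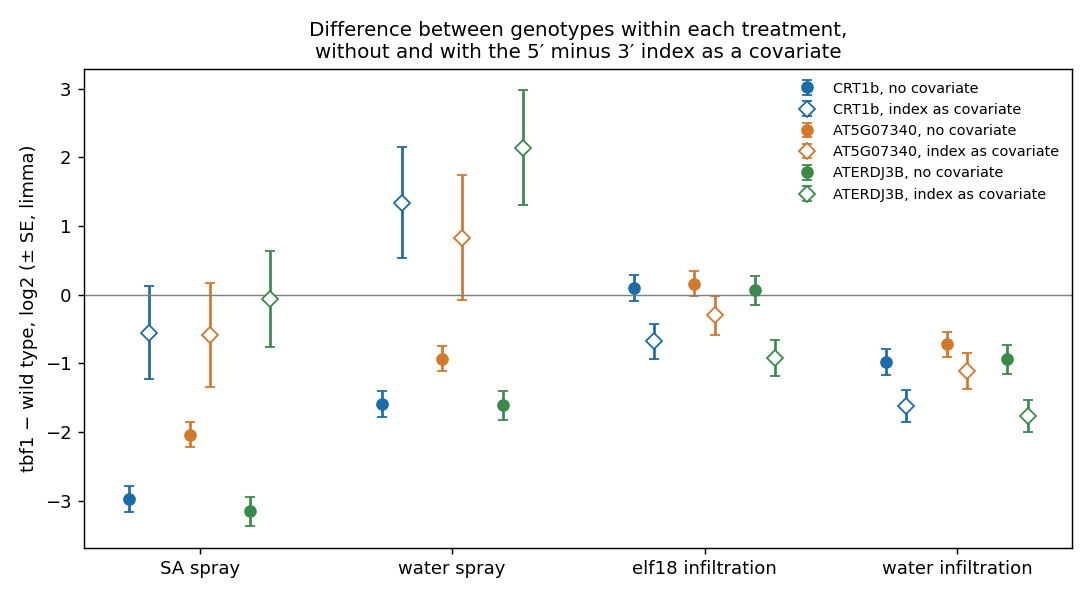
Difference between tbf1 and WT (log2, ± SE, limma) within each treatment, without (filled) and with (open) the 5′ minus 3′ quality index as a covariate. After water infiltration both values lie below 0 for all 3 genes; after water spray they lie on opposite sides of 0.

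The water groups differed between infiltration at 2 h and spray at 6 h in tbf1 for ATERDJ3B, by 1.04 ± 0.21 (log2, SE, adjusted p = 0.000128, limma), 1.49 without replicate 1 of tbf1 water spray and 0.33 after quantile normalization, where it was not called. In tbf1 CRT1b was at 0.41 (adjusted p = 0.0510) and AT5G07340 at -0.10, so 1 of 3 was called, where 75.4% of probe sets were called and 30.4% called higher. CRT1b was called without replicate 1 of tbf1 water spray, at 0.77, and with array centring or array weights (0.55 and 0.46). Over the whole array this difference had a median of -0.22. In WT the values were -0.21, -0.31 and 0.37 and none was called in limma (unadjusted p = 0.283, 0.0970 and 0.0910), against 35.8% of probe sets. ATERDJ3B was called there after quantile normalization (0.565), with array weights (0.32) and with only the groups compared (0.37), as was AT5G07340 with array weights (-0.33) and only the groups compared (-0.31). The mode of treatment and the time after it cannot be told apart. The index was higher by 2.51 after infiltration than after spray in tbf1 and lower by 0.47 in WT. With it as a covariate the direction turned in tbf1 for ATERDJ3B (-2.81, adjusted p = 0.0498, limma) and CRT1b (-2.60, adjusted p = 0.0615), and AT5G07340 was at -1.91. In WT the values were then 0.36, 0.029 and 1.10 for CRT1b, AT5G07340 and ATERDJ3B, and ATERDJ3B was called.

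In order of level, CRT1b was highest in WT SA spray (2.77 ± 0.08, SD, n = 3), then in WT water spray (1.00 ± 0.11) and WT water infiltration (0.79 ± 0.08). The step below WT SA spray and the step below WT water infiltration were larger than the spread, whereas the lowest WT water spray array and the highest WT water infiltration array stood level at 0.88 and the groups were not called apart. The remaining 5 groups, tbf1 elf18 (0.0039), WT elf18 (-0.09), tbf1 water infiltration (-0.19), tbf1 SA spray (-0.20) and tbf1 water spray (-0.60 ± 0.64), overlapped their neighbours. For AT5G07340, WT SA spray (2.52 ± 0.08) was followed by WT water spray (0.64), tbf1 SA spray (0.49) and WT water infiltration (0.32), where tbf1 SA spray overlapped both of the others and these did not overlap each other. Below a gap came tbf1 water spray (-0.30), tbf1 water infiltration (-0.40), tbf1 elf18 (-0.45) and WT elf18 (-0.61 ± 0.53). For ATERDJ3B the order was WT SA spray (2.58 ± 0.05), WT water infiltration (0.52), then WT water spray (0.15), tbf1 elf18 (0.07) and WT elf18 (0.01), which overlapped, and below a gap tbf1 water infiltration (-0.42), tbf1 SA spray (-0.57) and tbf1 water spray (-1.47 ± 0.78). The SD over the 24 arrays was 1.06, 1.00 and 1.14 for CRT1b, AT5G07340 and ATERDJ3B, higher than for 95.03%, 93.7% and 96.4% of probe sets.

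Among themselves the genes were compared as differences in response within the same arrays. In WT the SA response of ATERDJ3B exceeded that of CRT1b by 0.66 ± 0.08 (log2, SE) and that of AT5G07340 by 0.55 ± 0.08, and the SA response of AT5G07340 exceeded that of CRT1b by 0.11 ± 0.02. In tbf1 the same 3 differences in the SA response were 0.49 ± 0.12, 0.11 ± 0.43 and 0.38 ± 0.34. For elf18 they were 0.31 ± 0.09, 0.55 ± 0.11 and -0.25 ± 0.12 in tbf1 and 0.37 ± 0.11, 0.43 ± 0.29 and -0.06 ± 0.34 in WT. In 8 of the 12 comparisons the treated and water values did not overlap, each with p = 0.1 by exact permutation of the 3 treated and 3 water arrays, two-sided, and 0.15 after Benjamini-Hochberg adjustment. That p is the smallest this design can give.

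Across the 24 arrays the levels of CRT1b and ATERDJ3B correlated at 0.95, those of CRT1b and AT5G07340 at 0.89 and those of AT5G07340 and ATERDJ3B at 0.79, as a description, since the arrays share groups and processing. After removal of the group means the values were 0.91, 0.27 and 0.28, and without the 3 tbf1 water spray arrays they were 0.62, 0.11 and 0.10. Within groups, CRT1b, AT5G07340 and ATERDJ3B also correlated with the quality index, at 0.66, 0.42 and 0.74.

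The wider ER machinery was read from lists of 72 loci, of which 22 had a probe set named for that gene alone, 24 in all. The annotation used left 8730 probe sets without a gene name. Of the 6 lectin loci only CRT1b and AT5G07340 were covered, and BiP and SDF2 were not. Without the 3 genes above, 21 probe sets remained, of which 16 rose and 5 were not called with SA in tbf1 (median 0.84), and 15 rose and 6 were not called in WT (median 0.80). Of all probe sets 19.6% were called higher in tbf1 and 15.1% in WT. The medians over all probe sets were -0.08 and -0.02. The difference between genotypes was lower in 6, higher in 4 and not called in 11, with a median of -0.28 against -0.07 over all probe sets, of which 29.3% were called and 12.7% lower.

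Of the HSP70, HSP90 and partner list, AT4G29520 had SA responses of 0.84 ± 0.20 in tbf1 and 2.99 ± 0.20 in WT (log2, SE), and AT4G16660 had 0.87 ± 0.15 in tbf1 and 2.16 ± 0.15 in WT. Both differences between genotypes were called lower, at -2.15 and -1.29. ATERDJ2B, a J-domain partner of the translocon, rose by 0.66 in tbf1 and 1.34 in WT, with a difference of -0.68 that was not called, and its relative ATERDJ2A was at 0.28 in tbf1 and rose by 0.51 in WT. In the SEC61 list, whose products form the channel into the ER, AT1G29310 rose by 0.78 in tbf1 and 1.72 in WT, AT3G60540 by 1.40 in tbf1 and 1.88 in WT, and AT2G34250 by 0.84 in tbf1 and 1.28 in WT. The difference was called lower for AT1G29310 and AT3G60540. The pair of probe sets of AT3G48570 had the same signs in the main fit but differed in calls. The first had 1.17 in tbf1 and 0.31 in WT, both called. The other had 0.65 in tbf1, called, and 0.20 in WT, not called. The difference between genotypes was called higher on the first, at 0.86, and was 0.45 and not called on the other.

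Of the other lists, PDIL5-1, a protein disulfide isomerase-like gene, rose by 2.08 with SA in tbf1 and was at -0.13 in WT. DER2.1 and DER2.2, derlins of ER-associated degradation, rose by 1.35 and 0.96 in tbf1, and in WT DER2.1 rose by 0.49 while DER2.2 was at -0.20. PDIL5-1 and both derlins had a tbf1 minus WT difference called higher, from 0.85 to 2.203. These values, like the other SA responses in tbf1, rest on tbf1 water spray, the widest group. There PDIL5-1 ranged from -1.79 to -0.59, DER2.1 from -1.36 to -0.32 and DER2.2 from -1.18 to -0.63. AT4G29520 and AT4G16660, whose differences were called lower, ranged there from -1.56 to -0.33 and from -1.65 to -1.05. Values without single arrays or with the index are not given here for these genes. OS9, a lectin that hands misfolded glycoproteins to degradation, rose by 0.85 in tbf1 and 1.39 in WT, and 1 of the DER1 probe sets rose by 1.01 in tbf1 and 1.29 in WT while the other was at -0.03 in tbf1 and -0.04 in WT. Of the unfolded protein response factors, BZIP60 rose by 1.15 in tbf1 and 1.31 in WT, while BZIP17 and BZIP28 were at -0.03 and 0.16 in tbf1 and rose by 0.80 and 0.75 in WT. Of the N-glycosylation list, AT2G01720 rose by 0.91 in tbf1 and 0.97 in WT, and AT1G76400 rose by 0.69 in tbf1 and was at 0.21 in WT.

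**Figure D5:**
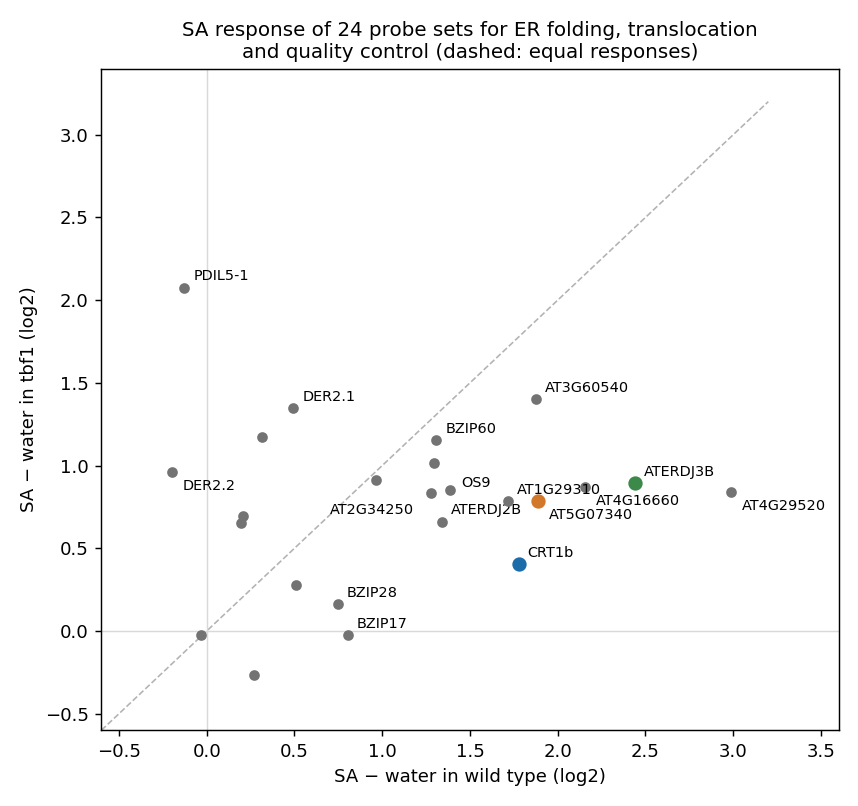
SA response in WT (x axis) against tbf1 (y axis), log2, for 24 probe sets of ER genes, with CRT1b in blue, AT5G07340 in orange and ATERDJ3B in green. The dashed line marks equal responses; the 3 coloured genes lie below it with AT4G16660 and AT4G29520, and PDIL5-1 lies farthest above it.

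With elf18 the same 21 probe sets were split, 10 higher and 6 lower in tbf1 (median 0.35) and 8 higher and 7 lower in WT (median 0.21), and the difference between genotypes was higher in 5 and lower in 2 (median 0.10). The shares called over all probe sets were 41.7% in tbf1, 58.1% in WT and 15.5% for the difference, so the 15 of 21 in WT were not far from the whole array. In tbf1 5 of the 21 were not called, and for the difference 14 were not, so the shares called there were above those of the array. AT4G29520 rose with elf18 in both genotypes, by 0.98 in tbf1 and 1.05 in WT, and BZIP60 did so by 1.04 in tbf1 and 0.85 in WT. ATERDJ2B fell by 0.70 with elf18 in WT and was at -0.10 in tbf1, where it was not called, and the difference of 0.59 was not called. ATERDJ2A fell by 0.39 in tbf1 and rose by 0.30 in WT, and its difference of -0.70 was called lower (adjusted p = 0.0103, limma), opposite in sign to those of CRT1b, AT5G07340 and ATERDJ3B. AT4G16660 fell by 0.50 in tbf1 and was at -0.08 in WT, with a difference of -0.41 that was not called. Of the SEC61 list, AT3G60540 rose by 2.12 in tbf1 and 2.27 in WT, both AT3G48570 probe sets rose in both genotypes, by 1.51 to 2.34, and AT2G34250 fell by 0.47 in tbf1 and 0.46 in WT. AT1G29310 rose by 0.43 in tbf1 and was at -0.17 in WT, with a difference of 0.60 called higher, while 1 AT3G48570 probe set had a difference of -0.43 called lower. The other differences called higher were those of DER2.2 (1.204), AT1G76400 (1.17), DER2.1 (0.89) and AT2G01720 (0.48). Against WT, tbf1 was lower in 12 and higher in 6 of the 21 after SA spray (median -0.60) and likewise 12 and 6 after water spray (median -0.77). It was lower in 4 and higher in 1 after water infiltration (median -0.04), and lower in 7 and higher in 6 after elf18 (median 0.15). Over all probe sets 58.1% were called after SA spray, 68.8% after water spray, 20.6% after water infiltration and 36.9% after elf18, so the 5 of 21 after water infiltration lay near the share of the array. After elf18 AT4G29520 (-1.24), AT4G16660 (-1.05), ATERDJ2A (-0.61), AT3G60540 (-1.02), BZIP60 (-0.81) and both AT3G48570 probe sets (-0.65 and -0.28) were called lower in tbf1. Those called higher in tbf1 there were DER2.2 (1.504), AT1G76400 (1.07), DER2.1 (1.06), 1 DER1 probe set (0.676), AT2G01720 (0.629) and AT2G34250 (0.628). EFR itself was at 0.05 with SA in tbf1 and rose by 0.72 in WT (difference -0.67, called lower), and was called higher in tbf1 than in WT after water spray (0.43), water infiltration (0.69) and elf18 (0.64), while after SA spray it was at -0.24, not called.

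The genes with the most similar pattern were ranked by Pearson correlation over the 24 arrays among 13510 other probe sets with 1 gene name. For CRT1b these were ATERDJ2B (0.947), AT1G80230 (0.927), OS9 (0.922), QQT2 (0.922) and AT3G51010 (0.911). For AT5G07340 they were AT3G51000 (0.946), AT2G28940 (0.940), AT1G68710 (0.931), AT3G56310 (0.929) and AT1G16260 (0.925), and for ATERDJ3B they were AT4G28570 (0.950), AT4G16660 (0.943), AT1G77810 (0.926), AT2G31390 (0.922) and PSY1R (0.914). None of the 13510 reached 0.9 with all 3 genes, while 6, 18 and 10 did so with CRT1b, AT5G07340 and ATERDJ3B one at a time. Ranked among the 13512 others with 1 gene name, ATERDJ3B was the nearest to CRT1b, CRT1b was at rank 2 for ATERDJ3B, and AT5G07340 was at rank 15 for CRT1b and 111 for ATERDJ3B.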

How the data were processed

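Leaf RNA of 8 groups of 3 was hybridised to ATH1 arrays. The deposited log2 values were made with RMA, per the submitters' processing notes, with no version given in the sources used here. Base 2 was taken because RMA works on that scale. Each probe set had been centred on its median over the 24 arrays (largest absolute median 5e-07, largest absolute value 5.30), so brightness and background are lost. Of 22810 probe sets 64 controls were left out. The rest had 1 gene name (13513, of which 13436 were matched to RefSeq TAIR10.1), several (503) or none (8730). All 24 arrays were fitted in limma 3.58.1 (R 4.3.3) with 1 mean per group, 16 residual degrees of freedom and Benjamini-Hochberg adjustment within each contrast, tested on simulated data. The 3 genes and the lists were chosen with earlier results of these data known. Named were the 3 genes in every contrast, called genes of the lectin, HSP70/HSP90 and SEC61 lists, EFR, and the 5 most similar probe sets. From the other lists the 2 largest called per direction with SA were named. For the elf18 difference and between genotypes after elf18, all called genes of the ER lists were named. Alternatives were array centring, quantile normalization, array weights, the index as covariate, a replicate block, a 2-fold minimum, only probe sets with 1 gene name, only the groups compared, and each array left out. Same-numbered replicates were not treated as pairs, though the check used cannot exclude pairing. Promoter and protein sequences were not used here.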

Additional observations from a re-analysis of the deposited data

Results flagged for a closer look

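In 6 results the response differed between genotypes by a test of the interaction in limma. For SA the tbf1 minus WT difference in response was -1.37 for CRT1b, -1.10 for AT5G07340 and -1.54 for ATERDJ3B (log2). For elf18 it was 1.07 for CRT1b, 0.88 for AT5G07340 and 1.01 for ATERDJ3B.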

How the results depend on the processing

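Of 504 values of the 36 results of CRT1b, AT5G07340 and ATERDJ3B under an alternative, 447 kept direction and call. Apart from the fits without 1 array there were 252 values, of which 215 kept both. With the index as a covariate 16 of the 36 results kept both, and 13 turned in direction. The values that did not keep both follow, log2, and the cause was not tested. With the index as a covariate CRT1b was at 1.62 and 0.67 for elf18 in tbf1 and WT, at -0.55, 1.34 and -0.68 between genotypes after SA spray, water spray and elf18, and at -2.60 and 0.36 for infiltration against spray in tbf1 and WT. AT5G07340 was then at 0.80 and -0.0052 for elf18 in tbf1 and WT, at -0.58, 0.83 and -0.30 between genotypes after SA spray, water spray and elf18, and at 0.029 for infiltration against spray in WT. ATERDJ3B was at 2.32 and 1.48 for elf18 in tbf1 and WT, at -0.063, 2.14 and -0.92 between genotypes, and at -2.81 and 1.10 for infiltration against spray in tbf1 and WT.

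For infiltration against spray, CRT1b in tbf1 was at 0.55 with array centring and 0.46 with array weights and in WT at 0.050 after quantile normalization. AT5G07340 was at 0.039 in tbf1 with array centring and in WT at -0.33 with array weights and -0.31 with only the groups compared. ATERDJ3B was at 0.33 in tbf1 after quantile normalization and in WT at 0.565 after quantile normalization, 0.32 with array weights and 0.37 with only the groups compared. Between genotypes after elf18 AT5G07340 was at -0.15 after quantile normalization. ATERDJ3B was at 0.89 for SA in tbf1 with only the groups compared, and for elf18 in tbf1 at 0.71 after quantile normalization, 0.50 with array weights and 0.50 with only the groups compared. The second AT3G48570 probe set was at -0.016 for SA in WT after quantile normalization.

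Replicate numbers were checked for pairing: deviations of same-numbered arrays correlated at -0.16 to 0.28, and in no comparison did every pair exceed 0.1, so the numbers were not treated as pairs. Arrays nearest to their own number were 6 of 6 between genotypes after SA spray. They were 5 of 6 for elf18 in tbf1 and for infiltration against spray in tbf1, and 4 of 6 between genotypes after elf18. In the other comparisons of 2 groups they were 0 to 3 of 6. Pairing by number is therefore not excluded. With the replicate block CRT1b was called for infiltration against spray in tbf1 (0.41) and ATERDJ3B for elf18 in tbf1 (0.50), and no other call of the 3 genes changed; the share of probe sets called moved most in points for elf18 in tbf1, 42.7% against 41.7%, and most as a ratio for the elf18 difference, 16.3% against 15.5%.

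Leaving out 1 array gave, for CRT1b, 0.15 to 0.76 for SA in tbf1, -0.0023 to 0.19 between genotypes after elf18 and 0.16 to 0.77 for infiltration against spray in tbf1. It gave, for AT5G07340, -0.16 to 0.046 for elf18 in tbf1, 0.62 to 1.15 for the elf18 difference, -0.10 to 0.43 between genotypes after elf18 and -0.18 to 0.0092 for infiltration against spray in tbf1. For ATERDJ3B it gave -0.55 to -0.47 for elf18 in WT and 0.97 to 1.04 for the elf18 difference.

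The share of probe sets called with a 2-fold minimum was 6.81%, 8.89% and 10.2% for SA in tbf1, in WT and their difference, 9.45%, 15.9% and 3.3% for elf18, 18.9%, 17.2%, 4.09% and 2.63% between genotypes after SA spray, water spray, elf18 and water infiltration, and 26.4% and 10.4% for infiltration against spray in tbf1 and WT. Under the index covariate this share was 10.2% and 16.6% for elf18 in tbf1 and WT, 6.01%, 0.954%, 18.5% and 11.9% between genotypes in the same order, and 6.61% for infiltration against spray in tbf1. For SA in tbf1 it was 25.7% after quantile normalization and 22.9% with only the groups compared, and between genotypes after water infiltration 32% with array weights.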
